A study of Mus musculus with 5 samples.

Results

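The 9 genes described here encode enzymes that cut the extracellular matrix, the inhibitors that hold those enzymes in check, and the cell-surface receptor that concentrates plasminogen activation. They are the secreted proteases Mmp3, Mmp10, Mmp13 and Mmp2, the membrane-anchored protease Mmp14, the inhibitors Timp1, Timp2 and Timp3, and the urokinase receptor Plaur. They were chosen by gene symbol, through the RefSeq accession printed beside each array probe. No cut on their measured values was used, although earlier results of these data were known when they were chosen. Together they have 12 of the 35078 gene probes on the array, and all 9 were among the 15051 genes or unnamed probes that passed a filter on dim spots (found by the scanner software on at least 2 arrays).

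RNA from non-involved mouse colon, meaning tissue without tumours, was measured on 5 single-colour arrays. All mice had a C57Bl6 background, were 10 weeks old at the start, received the carcinogen azoxymethane (AOM, 7.4 mg/kg) and then 2 cycles of dextran sulfate sodium (DSS), a polymer that injures the colonic epithelium. The first cycle began on day 7 and lasted 7 days, the second lasted 5 days, and tissue was taken at day 56. The villin-TLR4 group, in which the name joins the promoter of the epithelial gene villin to the lipopolysaccharide receptor TLR4, has 2 samples, 1 female and 1 male, given 1.5% DSS. The WT littermate group has 3 female samples given 3% DSS, so genotype and DSS concentration cannot be told apart. All 5 samples came from treated mice, and the labels do not say which TLR4 sequence the transgene carries. The labels number the samples without naming separate mice, so p-values measure the spread between these samples, which may be technical.

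Matrix metalloproteinases are made as inactive proenzymes and are activated outside the cell, in part by other metalloproteinases and by plasmin. Tissue inhibitors of metalloproteinases (TIMPs) bind the active site of the mature enzymes. In the injured gut, stromelysins and collagenases are produced mainly by mesenchymal cells, wound-edge epithelium and infiltrating leukocytes, while Mmp2, Timp2 and Timp3 are made steadily by stromal cells. Plaur binds urokinase at the cell surface, which turns plasminogen into plasmin.

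The arrays differed in quality. On WT littermate replicate 1 the scanner software found 13352 gene probes, against 16380 to 19509 on the other arrays, and marked 1240 spots as bad against at most 4. Its upper quartile of net signal was 116 and that of the other arrays 256 to 481. Neutrophil markers, of which 5 of 9 were measured, summed to an intensity of 36883 on this array and to 696 to 1699 on the other 4. Exocrine pancreas markers, of which 6 of 8 were measured, summed to 2020.5 and 2832 in villin-TLR4 and to 7109, 7185 and 60951 in WT littermates. Of the 7 colon markers 6 were measured, 5 of them found on all 5 arrays, and they summed to 15344 and 21785 in villin-TLR4 and to 13645, 36080 and 38030 in WT littermates. Cdx1, a homeobox factor of the intestine, varied least (11.56 to 12.16) and the anion exchanger Slc26a3 most (9.55 to 12.99). Differences of the 9 genes, and of the other genes described with array values, are therefore given with and without WT littermate replicate 1. Values are log2 intensities after background correction and quantile normalisation, and a difference is the mean of villin-TLR4 less that of WT littermates. Precision is limited by there being only 5 arrays.

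The stromelysins and the collagenase were brighter on WT littermate replicate 1 than on the other 4 arrays, and those 4 arrays ordered them in separate ways. Mmp10, stromelysin-2, read 9.29 and 8.33 in villin-TLR4 replicates 1 and 2, and 12.29, 7.47 and 7.25 in WT littermate replicates 1, 2 and 3, the order kept throughout. Mmp13, the interstitial collagenase of rodents, read 9.50 and 9.28 in villin-TLR4 and 12.39, 7.96 and 7.95 in WT littermates. Both villin-TLR4 arrays thus lay between the bright WT littermate array and the other two, and the groups overlapped. Mmp3, stromelysin-1, behaved differently, with 6.98 and 7.46 in villin-TLR4 and 10.89, 8.31 and 8.20 in WT littermates. Every WT littermate array was above both villin-TLR4 arrays for Mmp3.

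Mmp13, Mmp3 and Timp3 each had a second probe. The second Mmp13 probe stood at 7.23 and 7.12 in villin-TLR4 and at 9.45 on WT littermate replicate 1, and was not found on the other 2 WT littermate arrays. For Mmp3 the second probe read 6.83 on villin-TLR4 replicate 2, was not found on replicate 1, and read 9.05, 7.23 and 7.06 in WT littermates. For both genes WT littermate replicate 1 was again the brightest array. The main Mmp3 spot on WT littermate replicate 1 had a noisy surround, with a net signal of only 0.317 background SDs, whereas the second probe had 4.6 there. In villin-TLR4 the main Mmp3 spot was dim, at 1.80 and 2.10 background SDs.

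Timp1, the inhibitor that is strongly inducible in inflamed tissue, had the pattern of Mmp3. It read 8.11 and 8.68 in villin-TLR4 and 11.44, 9.83 and 9.41 in WT littermates, with no overlap between the groups. Plaur read 7.07 and 8.40 in villin-TLR4, where it was not found on replicate 1, and 10.17, 8.26 and 7.32 in WT littermates. Only the bright WT littermate array stood above the range of the other 4 for Plaur, and the groups overlapped.

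The remaining proteases and inhibitors spanned a narrower range over the arrays. Mmp2, gelatinase A, read 10.98 and 11.08 in villin-TLR4 and 11.49, 11.24 and 10.79 in WT littermates. Mmp14, the membrane-type protease that activates pro-Mmp2, read 10.95 and 10.52 against 10.22, 10.47 and 10.26. Timp2, which takes part in that activation, read 12.35 and 11.67 against 11.35, 12.54 and 11.76. Of these 3 genes Mmp14 alone had both villin-TLR4 arrays above every WT littermate array, by a margin of hundredths on its lower side. Timp3, the matrix-bound inhibitor, read 11.67 and 11.30 against 11.15, 12.30 and 11.57. Its second, dimmer probe read 7.74 and 7.50 against 7.75, 7.99 and 8.04, so the groups overlapped for the main Timp3 probe and, by less than a hundredth, did not for the dimmer one. WT littermate replicate 1 was the lowest array on the main probe and not on the dimmer one.

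**Figure D1:**
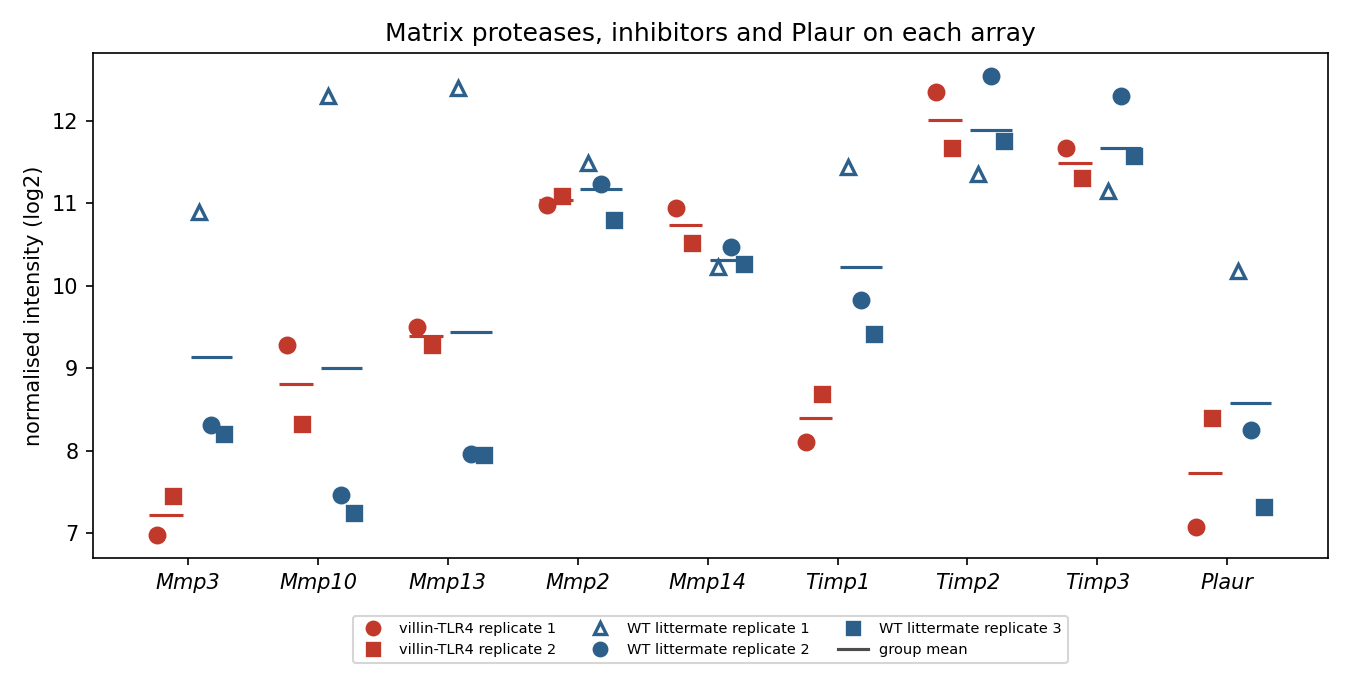
Normalised log2 intensity (vertical axis) of each gene's representative probe on the 2 villin-TLR4 arrays (red) and the 3 WT littermate arrays (blue), with a line at each group mean. WT littermate replicate 1 (open triangles) reads 10.89 for Mmp3, 12.29 for Mmp10, 12.39 for Mmp13, 11.44 for Timp1 and 10.17 for Plaur, above all other arrays, while for Timp2, Timp3 and Mmp14 it is the lowest array.

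The excess on that array was above 2 on the log2 scale for 5 of the 9 genes. WT littermate replicate 1 exceeded the mean of the other arrays by 4.21 for Mmp10, 3.72 for Mmp13, 3.15 for Mmp3, 2.43 for Timp1 and 2.41 for Plaur. It lay 0.46 above that mean for Mmp2, and below it for Mmp14 (-0.32), Timp3 (-0.56) and Timp2 (-0.72). Of 14605 genes or unnamed probes with a value on every array, 1.07% exceeded the other arrays' mean by more than 2 on this array and 0.336% by more than 3. These are levels on 1 array and carry no test. In bulk tissue, fewer cells of a type and less RNA per cell cannot be told apart.

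Promoter sequences from RefSeq (GRCm38.p6) are shown for the 5 genes with this excess, because 4 of them share a short run of letters. Of the 9 genes, 8 have a window in the table, 250 bases before to 50 after the gene start, and Mmp2 has none. The letters TGANTCA, which AP-1 factors (Fos and Jun proteins) are known to bind, were searched on both strands and read alike on both. They occur once each in Mmp3, Mmp10, Mmp13 and Plaur, and not in the windows of Timp1, Timp2, Timp3 or Mmp14. Across all 32851 windows of the table, 7.81% hold them. The TATAAA letters occur in the windows of Mmp3, Mmp10 and Mmp13, in 3 of 8 windows against 13.6% of all windows. AGGAAG, the letters of PEA3-type ETS factors, occurs in 6 of 8 windows against 35.4% of all. No match of one kind overlaps a match of another. The lines below give the 150 bases before each gene start on the + strand, 5′ to 3′, with TGANTCA and TATAAA matches in capitals.
Mmp3, chr9:7445672-7445821: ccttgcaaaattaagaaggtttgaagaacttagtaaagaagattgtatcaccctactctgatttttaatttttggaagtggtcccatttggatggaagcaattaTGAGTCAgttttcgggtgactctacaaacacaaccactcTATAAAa
Mmp10, chr9:7502192-7502341: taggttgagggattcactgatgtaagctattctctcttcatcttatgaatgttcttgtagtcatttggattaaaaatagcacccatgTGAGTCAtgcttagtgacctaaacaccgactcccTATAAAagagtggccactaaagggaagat
Mmp13, chr9:7272364-7272513: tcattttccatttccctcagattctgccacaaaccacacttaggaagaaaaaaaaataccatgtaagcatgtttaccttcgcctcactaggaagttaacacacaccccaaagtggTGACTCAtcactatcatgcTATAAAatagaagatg
Plaur, chr7:24462333-24462482: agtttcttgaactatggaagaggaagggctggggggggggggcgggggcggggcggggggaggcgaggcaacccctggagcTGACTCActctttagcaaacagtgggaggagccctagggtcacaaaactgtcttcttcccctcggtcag
Timp1, chrX:20870016-20870165: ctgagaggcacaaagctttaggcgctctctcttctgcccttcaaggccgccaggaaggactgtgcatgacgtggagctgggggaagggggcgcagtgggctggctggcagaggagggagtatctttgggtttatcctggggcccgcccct

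Mmp3, Mmp10 and Mmp13 lie in a common stretch of chromosome 9, and their TGANTCA matches begin 46, 63 and 35 bases before the gene start. In Plaur the match begins 69 bases before it. The TATAAA match follows the TGANTCA match in each of the 3 protease genes. A match describes letters in this window and does not show that a factor is bound there. Timp1 has neither run of letters in its window.

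**Figure D2:**
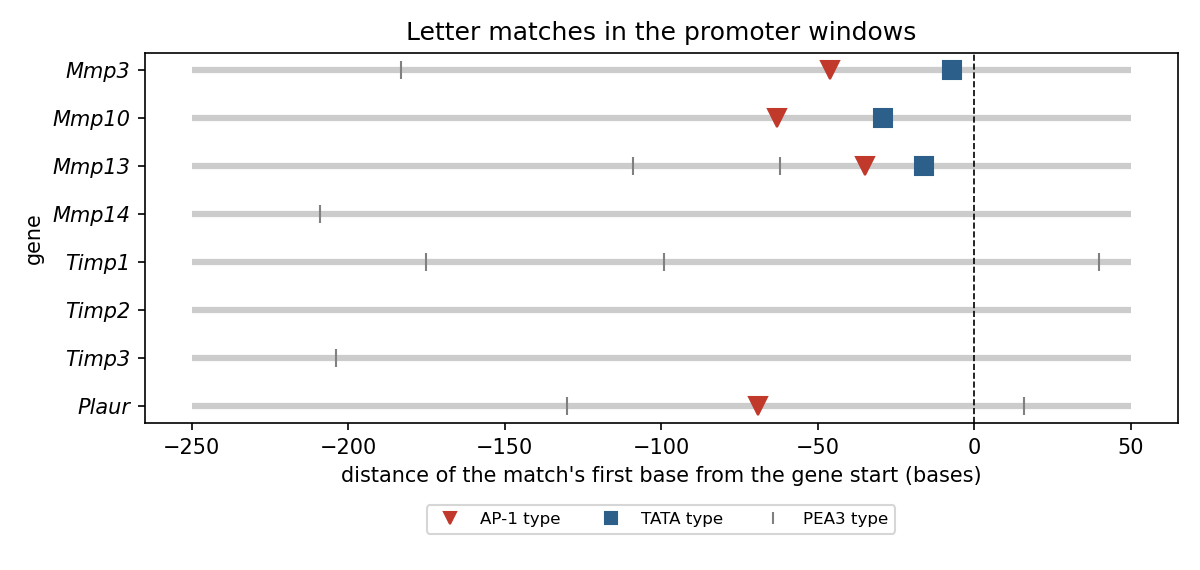
Position of each letter match (first base, in bases from the gene start at 0) in the promoter windows of the 8 genes in the table. TGANTCA matches (triangles) lie at -46 in Mmp3, -63 in Mmp10, -35 in Mmp13 and -69 in Plaur, TATAAA matches (squares) lie closer to the start in the 3 protease genes, and the other 4 genes hold neither.

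None of the 9 genes passed the threshold for a difference between the groups. By limma with Benjamini-Hochberg adjustment, the adjusted p was under 0.05 for 0 of 15051 features (0%), and the unadjusted p for 730 (4.85%, made up of 2.15% lower and 2.70% higher in villin-TLR4). Among the 9 genes only Timp1, on the lower side, was under that unadjusted level. Timp1 averaged 8.40 ± 0.41 (SD, n = 2) in villin-TLR4 and 10.23 ± 1.07 (SD, n = 3) in WT littermates, a log2 difference of -1.83 ± 0.61 (SE) with a 95% interval of -3.29 to -0.37. This is a mean 3.55-fold higher in WT littermates, with a limma adjusted p of 0.87. Mmp3 averaged 7.22 ± 0.34 and 9.14 ± 1.52, a difference of -1.92 ± 0.82 (SE) with a 95% interval of -3.89 to 0.05 and the same adjusted p. Since its spots were dim in villin-TLR4 and noisy on WT littermate replicate 1, no fold is given. Its second probe differed by -1.15, or by -0.52 without that array. In villin-TLR4 the second probe was dimmer still, at 0.49 (not found) and 1.03 background SDs. Its differences therefore rest on signal near background. Plaur gave -0.85 ± 0.85 (SE) and Mmp14 0.42 ± 0.25.

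For Mmp10 and Mmp13 the group means were close although single arrays were far apart. Over all 5 arrays the differences were -0.20 ± 1.49 (SE) and -0.04 ± 1.33. The interval for Mmp10 ran from -3.80 to 3.41, so these arrays set no useful limit on its difference. Mmp2, Timp2 and Timp3 gave -0.14 ± 0.28, 0.12 ± 0.42 and -0.19 ± 0.38. Of the 9 differences 7 were below 0 and 2 above, with a median of -0.19, beside a median of 0.01 over all features. Timp1 and Mmp3 were below -1, as were 1.45% of all features, and none of the 9 was above 1, as were 2.29%. Timp1 and Mmp3 had no overlap between the groups in the lower direction, 22.2% of the 9 genes, beside 12.9% of the features with a value on every array. Mmp14 had none in the higher direction, 11.1% of the 9 genes, beside 12.6%. With so few genes these shares do not set the 9 apart from the background.

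Leaving out WT littermate replicate 1 turned the sign of the Mmp10 and Mmp13 differences, and that of the small Mmp2 (0.02) and Timp2 (-0.14) differences, and kept that of the other 5 genes. Without it Mmp10 was higher in villin-TLR4 by 1.45 ± 0.34 (SE) and Mmp13 by 1.43 ± 0.18. Timp1 was lower by 1.22, with an SE of 0.27, and Mmp3 by 1.04, with an SE of 0.23. The limma adjusted p was 0.155 for Mmp13, 0.30 for Timp1 and Mmp3, and 0.31 for Mmp10, so none passed, and 0 of 15051 features did (0%). The unadjusted limma p was under 0.05 for 4 of the 9 genes, with Timp1 and Mmp3 lower and Mmp10 and Mmp13 higher. Over all features 5.58% were lower and 5.31% higher at that level. Differences above 1 were found for Mmp10 and Mmp13 and for 1.99% of all features, and those below -1 for Timp1 and Mmp3 and for 1.40%. Plaur gave -0.05 ± 0.51 and Mmp14 0.37 ± 0.22. The groups then did not overlap for Timp1 and Mmp3 (lower, 22.6% of all features) and for Mmp10, Mmp13 and Mmp14 (higher, 20.3%).

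Villin-TLR4 replicate 1 was scanned on the first day and WT littermate replicates 1 and 3 on the second, by the file headers. Scan day could be held constant only for villin-TLR4 replicate 2, the male, and WT littermate replicate 2, a female, both scanned on day 3, a single pair with no test. There Mmp13 differed by 1.32 and Mmp10 by 0.86. Timp1 differed by -1.14 and Mmp3 by -0.86, the same directions as without the bright array. Timp3 and Timp2 differed by -1.0 and -0.88, against -0.19 and 0.12 over all arrays. A limma fit with scan day as a block called 4 of 14605 features (0.0274%), none of them among the 9 genes. In this pair sex changes with genotype.

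**Figure D3:**
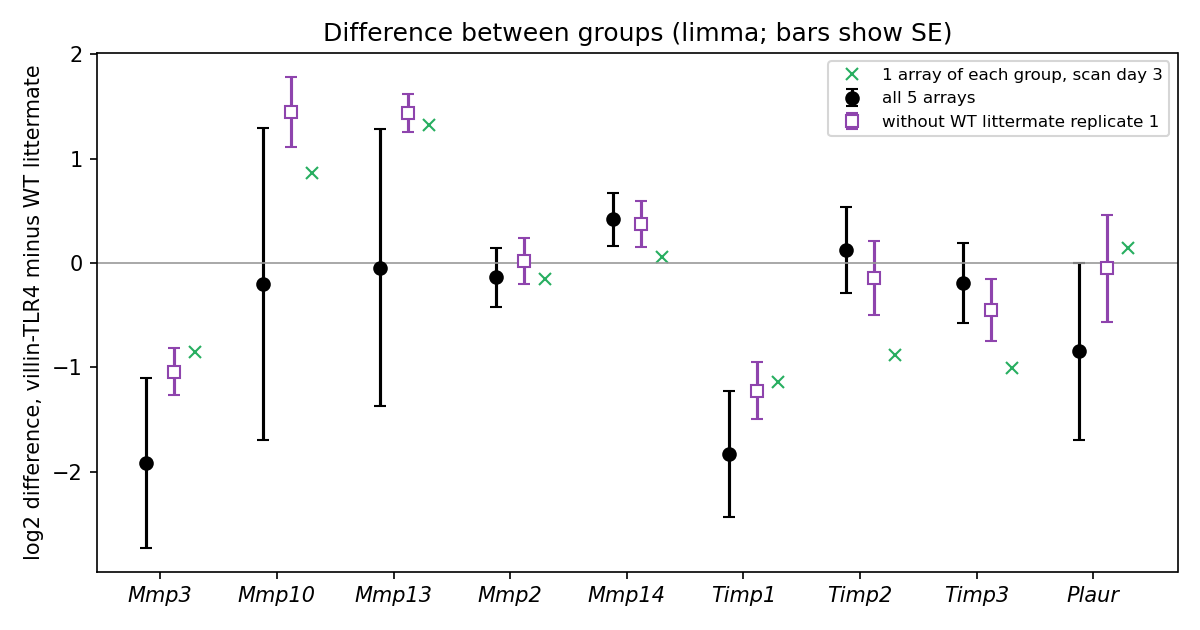
Log2 difference between villin-TLR4 and WT littermates (vertical axis) for each gene from all 5 arrays (circles), without WT littermate replicate 1 (squares) and between the single pair of arrays scanned on day 3 (crosses); bars are SEs of the limma fit. Timp1 and Mmp3 are below 0 in all 3, and Mmp10 and Mmp13 move from -0.20 and -0.04 to 1.45 and 1.43 when the bright array is left out.

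The authors' deposited table showed the same array pattern on its own scale, a linear ratio whose denominator is not stated. In the authors' deposited table Mmp13 stood at 1.03 and 0.937 in villin-TLR4 and at 12.6, 0.279 and 0.284 in WT littermates. Timp1 stood in the authors' deposited table at 0.171 and 0.299 in villin-TLR4 and at 2.91, 0.683 and 0.502 in WT littermates. The villin-TLR4 arrays were again between the WT littermate arrays for Mmp13 and below all of them for Timp1.

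Likeness between profiles was measured as the root mean square difference of log2 values over the 5 arrays, each gene centred on its own median. Timp1 and Mmp3 differed by 0.33, and Mmp10 and Mmp13 by 0.56. Mmp3 was farther from its chromosome neighbours, at 1.35 from Mmp10 and 1.15 from Mmp13, than from the X-linked Timp1. All likeness values of Mmp3 use its main probe alone. The spots of that probe were dim in villin-TLR4 and had a noisy surround on WT littermate replicate 1. Timp2 and Timp3 were the closest pair at 0.24. Plaur lay at 0.61 from Timp1, 0.68 from Mmp3 and 1.03 from Mmp13.

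Among 7724 other named genes found on all 5 arrays, the 5 nearest to Mmp10 included Mmp13, the neutrophil chemokine Cxcl5 (0.59), the neutrophil calgranulin S100a8 (0.62) and the cytokine Il1b (0.73). Il1b read 8.90 and 10.13 in villin-TLR4 and 12.50, 7.95 and 7.53 in WT littermates, the order of groups seen for Mmp13, and differed by 0.19, or 1.77 without the bright array. The 5 nearest to Mmp13 included the chemokine Cxcl16 (0.52), Mmp10, the IL-33 receptor Il1rl1 (0.60) and the antiprotease Slpi (0.61). All of these named genes were brightest on WT littermate replicate 1, which follows from their choice by likeness to Mmp10 and Mmp13 and adds no separate evidence.

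Other matrix proteases and inhibitors were described from a list of 32 genes, of which 23 were measured. Of these 10 had differences above 0 and 13 below, with a median of -0.08 beside 0.01 for all features, and 0 passed. Without WT littermate replicate 1 the median was -0.03, beside -0.02. The gelatinase Mmp9 followed Mmp10 and Mmp13, with 8.98 and 8.72 in villin-TLR4 and 9.91, 7.40 and 7.27 in WT littermates. Matrilysin Mmp7, an epithelial protease found on 2 of the 3 WT littermate arrays, read 8.45 and 7.30 against 10.84, 6.66 and 6.87. Without WT littermate replicate 1 these differed by 1.51 and 1.11, against 0.66 and -0.25 over all arrays. The macrophage elastase Mmp12 read 7.35 and 7.13 against 9.40, 7.60 and 6.94, with the bright array again above the rest and a difference of -0.74 ± 0.69 (SE), or -0.03 without it.

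The aggrecanase Adamts4 lay on the side of Timp1 and Mmp3. It read 6.55, where it was not found, and 7.46 in villin-TLR4, and 8.36, 8.49 and 7.95 in WT littermates, a difference of -1.26 ± 0.35 (SE) and -1.22 without the bright array. Mmp19 gave -0.65 ± 0.34 with no overlap, and Adam8, an adhesion protease of leukocytes, gave -0.66 ± 0.45. Without the bright array these were -0.45 and -0.27. Of the 22 genes of this list with a value on every array, 4 had no overlap on the lower side, beside 12.9% of features. On the higher side there were 0, beside 12.6%. Smaller differences were those of the sheddase Adam17 at 0.07, the membrane inhibitor Reck at 0.32, the MMP inducer Bsg at 0.23, Adamts1 at 0.34 and Adamts5 at 0.36. Without the bright array Reck was at 0.076, Adamts1 at -0.056 and Adamts5 at 0.038, while Adam17 was at -0.017 and Bsg at 0.22. Adam12 was found on no villin-TLR4 array. The collagenase Mmp8, a neutrophil product, was found on WT littermate replicate 1 alone and was not tested.

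Around Plaur, the plasminogen activation list had 8 of 13 genes measured, with 4 above and 4 below 0 and a median of -0.09. The urokinase gene Plau, its inhibitor Serpinb2 and the precursor Plg were not found on any array. The tissue-type activator Plat read 8.69 and 9.30 in villin-TLR4 and 10.58, 9.39 and 8.85 in WT littermates, a difference of -0.61 that was -0.12 without the bright array. S100a10, which with annexin A2 forms a plasminogen receptor, read 12.29 and 11.78 against 14.32, 13.43 and 12.87, a difference of -1.51 ± 0.45 (SE) without overlap, and -1.12 without the bright array. Its partner Anxa2 gave -0.56 ± 0.28, also without overlap, while the endocytic receptor Lrp1 gave 0.07 and the integrin chain Itgb1 gave 0.85 ± 0.79, or 0.015 without the bright array. On the lower side 2 of the 8 had no overlap, beside 12.9% of features, and none of the 8 passed the threshold.

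**Figure D4:**
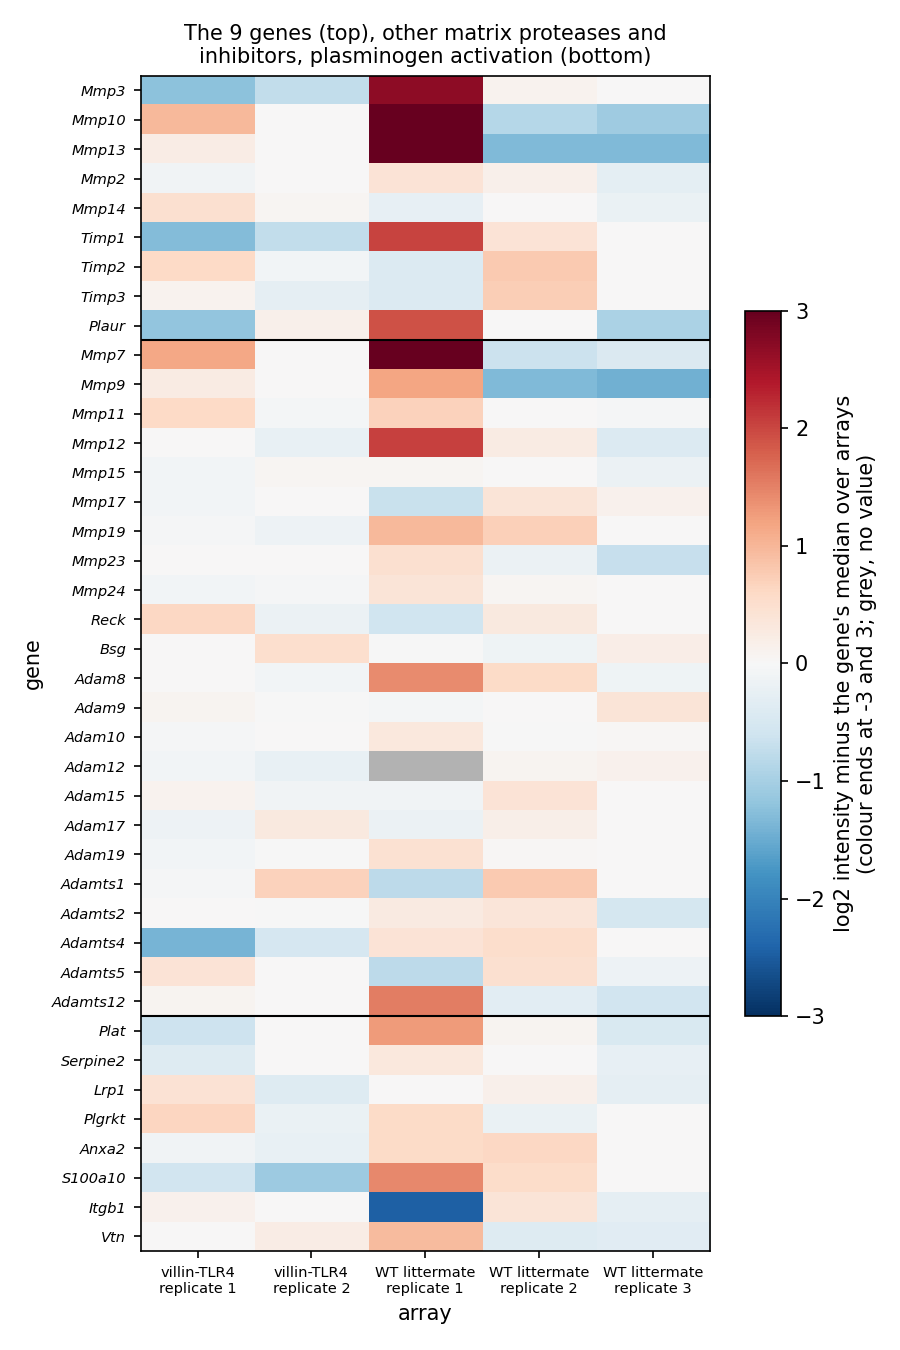
Log2 intensity minus each gene's own median over the arrays (colour, ending at -3 and 3) for the 9 genes, the 23 measured members of the wider protease list and the 8 measured plasminogen activation genes (rows) on the 5 arrays (columns). Mmp10, Mmp13, Mmp7 and Mmp9 are above their median on WT littermate replicate 1 and below it on replicates 2 and 3, whereas Timp1, Mmp3, Adamts4 and S100a10 are below it on both villin-TLR4 arrays.

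Subunits of AP-1, cytokines and matrix components were counted in the same way. All 7 AP-1 subunits were measured, 4 above and 3 below 0 with a median of 0.08, which became 3 above and 4 below with a median of -0.16 without WT littermate replicate 1. Fosl1, the Fos-related subunit, read 7.20 and 7.33 in villin-TLR4 and 9.95, 10.68 and 9.20 in WT littermates, a difference of -2.68 ± 0.44 (SE). Jun and Fos lay the other way, at 1.40 ± 0.33 and 1.39 ± 0.36. Without WT littermate replicate 1 these 3 differences were -2.67, 1.27 and 1.31. The groups did not overlap for Fosl1 and Fosb (-0.61 ± 0.24) on the lower side, beside 12.9% of features, nor for Jun and Fos on the higher side, beside 12.6%, and none of the 7 passed. Of 9 listed cytokines 6 were measured, 3 above and 3 below 0 with a median of -0.10. Without WT littermate replicate 1 there were 5 above and 1 below, with a median of 0.54. Over all features 7235 were then above and 7816 below 0, with a median of -0.02. Only 3 of the 6 cytokines were found on all 5 arrays, and Il6 was found on no villin-TLR4 array. The cytokine counts and medians thus rest partly on dim signal. Tnf read 9.0 and 9.96 in villin-TLR4 and 9.95, 6.83 and 6.81 in WT littermates, a difference of 1.61 ± 0.98 (SE), or 2.66 without the bright array. Of 17 matrix components 16 were measured, 5 above and 11 below 0 with a median of -0.11, which became 9 above and 7 below with a median of 0.035 without that array. Tenascin C (Tnc), a matrix protein of wounds, gave -0.73 ± 0.28, without overlap, and the type III collagen chain Col3a1 gave -0.61 ± 0.42. Without the bright array these were -0.87 and -0.25.

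Markers of the cells that make these proteins gave the following sums of intensity. Fibroblast markers, all 10 of them measured, summed to 21260 and 17529 in villin-TLR4 and to 18783 to 27484 in WT littermates, so the groups overlapped. Of their differences 3 were above and 7 below 0, with a median of -0.24. Pdpn, which marks activated fibroblasts and lymphatic vessels, had the largest, -1.22 ± 0.35 (SE), or -0.95 without the bright array. It was the only 1 of the 10 without overlap, on the lower side, beside 12.9% of features. Fap and Col1a1 lay the other way, at 0.29 ± 0.41 and 0.41 ± 0.32. Macrophage markers, 6 of 8 measured, summed to 10425 and 13284 and to 8149 to 17857, with the highest sum on WT littermate replicate 1. Smooth muscle markers, summed over the 5 of 6 with a value on every array, gave 16736 on that array and 37945 to 69359 on the other 4. Epithelial markers, all 7 measured, summed to 60296 there and to 78190 to 90850 elsewhere. Neutrophil and macrophage sums were highest, and smooth muscle and epithelial sums lowest, on the array where Mmp3, Mmp10, Mmp13, Timp1 and Plaur were brightest. The fibroblast sum was also highest on that array (27484), with WT littermate replicate 2 next (25975). Members of a list did not all follow its sum there. Of the epithelial markers Cdx2 was lowest on that array (10.81) but Krt20 highest (9.13). Of the macrophage markers Cd14 was highest there (11.92) but Mrc1 lowest (9.38). The part of these cell types in the values of the 5 genes was not tested. The defining neutrophil genes Csf3r and Ltf read at most 6.50 and 7.27 on the other 4 arrays, against 7.87 and 9.19 on that array, and Camp, Ngp, Mpo and Cxcr2 were found on that array alone.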

How the data were processed

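Colon RNA was hybridised as biotin-labelled cRNA, per the labels' protocols. The deposited intensity values are scanner output from GenePix Pro 4.1.1.4 on a GenePix 4000B scanner at 635 nm, not normalised, per the file headers. A deposited flag score marks each spot as found (0), not found (-50) or bad (-100), per the file headers. The authors' deposited table is a linear ratio per probe. Its column medians are 0.981, 1.07, 1.18, 0.98 and 0.991, each column follows its own array (r from 0.823 to 0.953 across probes), and its denominator and centring are unknown.

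Median foreground of all spots was background-corrected (normexp, offset 50; limma 3.58.1, R 4.3.3). Bad spots became missing, 3802 control spots were dropped, and 35078 gene probes were quantile normalised on log2. Accessions were matched without versions to RefSeq (GRCm38.p6), which named 23071 probes. The brightest probe found on at least 2 arrays represented a gene. The 2 villin-TLR4 arrays were tested against the 3 of WT littermates with lmFit and eBayes, two-sided, Benjamini-Hochberg over all features, threshold 0.05. The code recovered large changes simulated with equal noise on every array, which checks the code and does not measure power on these unequal arrays. Named genes were the 9 genes, fixed members of 2 companion lists, up to 3 others per list with the largest differences, and the 5 nearest profiles; some genes under this rule are not reported here. Settings tried were background correction, offset, scaling, filter, probe choice, variance model, array weights, blocks, sex, leaving out each array, and the deposited ratios. The genes and lists were chosen with earlier results of these data known.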

Additional observations from a re-analysis of the deposited data

How the results depend on the processing

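None of the 9 genes passed the threshold in the main comparison or in any of 19 other settings, where the lowest limma adjusted p was 0.152 for Timp1, 0.199 for Mmp3, 0.155 for Mmp13 and 0.307 for Mmp14. The count over all features was 0 in the main comparison, 21 with array weights (WT littermate replicate 1 weighted 0.147), 19 with the replicate block and 4 with scan day as a block. Timp1 and Mmp3 were lower in villin-TLR4 and Mmp14 higher in all 19, which are not independent. The sex covariate gives the 9 genes the same differences as leaving out villin-TLR4 replicate 2, the replicate block the same as leaving out WT littermate replicate 3, and the scan-day block those of the single pair. Leaving out each array in turn gave -2.23 to -1.22 for Timp1, -2.38 to -1.04 for Mmp3, 0.21 to 0.63 for Mmp14, -1.07 to 1.45 for Mmp10, -0.79 to 1.43 for Mmp13, -1.51 to -0.05 for Plaur, -0.22 to 0.47 for Timp2, -0.45 to 0.12 for Timp3 and -0.33 to 0.019 for Mmp2. The sign also turned with array weights, which gave 1.38 for Mmp10, 1.31 for Mmp13, 0.15 for Mmp2 and 0.18 for Plaur. It turned with scan day as a block, at 0.86 for Mmp10, 1.32 for Mmp13, -0.88 for Timp2 and 0.14 for Plaur. With sex as a covariate Mmp10 was 0.28 and Mmp13 0.062, with plain subtraction 0.066 and 0.12, and with offset 16 Mmp13 was 0.028. The cause was not tested. The labels do not say that a replicate number pairs samples. Deviations of same-numbered arrays correlated at -0.15 and -0.21, and those of crossed arrays at 0.21 and 0.15. Since 2 villin-TLR4 arrays deviate from their mean by equal and opposite amounts, these values cannot decide whether samples were paired. With the replicate block Timp1 was -2.23 and Mmp3 -2.38. Plaur was left out by the filter on all 5 arrays. Dim signal limits Mmp3 in villin-TLR4 and Plaur on villin-TLR4 replicate 1.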
